A study of Rattus norvegicus with 6 samples.

Results

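The miR-183, miR-96 and miR-182 cluster is a group of neighbouring microRNA genes that are transcribed together, and its mature miRNAs were described here in the testes of diabetic and normal rats. Members were the rows of the deposited miRNA table named miR-96, miR-182 or miR-183, with or without an arm (5p or 3p, the side of the hairpin that a mature miRNA comes from). The rule found 3 members among 721 entries, namely miR-183-5p, miR-96-5p and miR-182. Small RNA had been sequenced in 6 libraries of testicular tissue from Sprague-Dawley rats, 3 with streptozotocin (STZ)-induced diabetes at week 8 and 3 labelled normal. According to the study's methods, the diabetic rats had received a high-fat diet and then a single intraperitoneal injection of STZ, a toxin of insulin-producing cells, whereas controls had received citrate buffer. Whether the controls also ate the high-fat diet, and the age of the rats at sampling, were not given in the sources used here. Whole testis was sequenced, so every value is an average over germ cells, Sertoli cells, Leydig cells, vessels and blood.

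A miRNA loads onto an Argonaute protein and pairs with messenger RNAs mainly through its seed, the short stretch near its 5′ end, which lowers translation and stability of those messengers. The miR-183 cluster is best known in sensory cells such as hair cells and photoreceptors. In the testis it has been linked to germ cells in meiosis. miR-96 and miR-182 are also known to repress FOXO1, a transcription factor that insulin signalling restrains.

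The sequences of the 3 members are shown because their seeds overlap, with each seed (bases 2 to 8) in capitals. They were taken from RefSeq on rat assembly GRCr8, where all lie on the minus strand of chromosome 4, and all 3 members were matched by name.
miR-183-5p: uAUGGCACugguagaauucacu
miR-96-5p: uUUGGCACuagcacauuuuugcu
miR-182: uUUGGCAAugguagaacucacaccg

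On GRCr8, miR-183-5p lay at chr4:59756106-59756127 in the gene Mir183, miR-96-5p at chr4:59755901-59755923 in Mir96, and miR-182 at chr4:59752249-59752273 in Mir182. Mir183 and Mir96 were separated by 97 bases, and Mir182 lay a further 3533 bases from Mir96. Mir183 stood first and Mir182 last in the direction of transcription. RefSeq also held mature 3p arms of miR-96 and miR-183, and neither had an entry in the deposited table.

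The seeds formed a chain of single-base steps. miR-182 and miR-96-5p shared bases 2 to 7 (UUGGCA) and differed in the seed only by A8C, counted from 1 at the 5′ end with the base of miR-182 first. miR-183-5p and miR-96-5p differed in the seed only by A2U, with the base of miR-183-5p first. Over the whole aligned length, seed included, miR-182 and miR-183-5p had the same base at 18 of 22 positions (81.8%), miR-183-5p and miR-96-5p at 13 of 22 (59.1%), and miR-182 and miR-96-5p at 12 of 23 (52.2%). Outside the seed the pairs had the same base at 13 of 15, 7 of 15 and 6 of 16 positions, in that order. Among 693 mature miRNA names in the RefSeq table, 0 others had bases 2 to 8 of any member. The only shared bases 2 to 7 were those between miR-182 and miR-96-5p. How reads that matched several miRNAs were assigned was not given in the sources used here, and miR-182 and miR-183-5p differed at 4 of the 22 positions compared, U2A, A8C, C17U and A22U with the base of miR-182 first.

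The opposite strand of Mir183 carries another annotated miRNA gene, Mir3553, whose product was looked up after the values had been seen. In the sequence of miR-3553, printed with capitals where it complements miR-183-5p, all 22 bases of miR-183-5p were covered.
miR-3553: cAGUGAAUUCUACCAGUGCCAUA

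It lay on the plus strand at chr4:59756105-59756127 of GRCr8. The deposited table listed 1, 2 and 0 reads of miR-3553 in diabetic replicates 1, 2 and 3 and 2, 2 and 1 in normal replicates 1, 2 and 3. Every library was at or under 3 reads, the smallest level treated as measurable, so no fold is given. Whether reads were assigned by strand was not given, so reads of this pair may not be separable.

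The cluster was scarce in both groups. Levels are in CPM, read counts scaled so that all libraries have the same miRNA total, and each read stands for 1 miRNA, so no length term enters. Depth ranged from 305476 to 549446 miRNA reads a library, and the 3 members together took 127 of 2690909 reads (0.00472%). By mean level over the 6 libraries miR-183-5p ranked 312 of 721 with 17.4 CPM, miR-96-5p ranked 319 with 16.3 CPM and miR-182 ranked 332 with 14.7 CPM. These neighbours in the order differed by less than the smallest SD of any member in any group (4.47 CPM). miR-183-5p stood between miR-503-3p (17.4 CPM) and miR-152-5p (17.2 CPM), and miR-182 between miR-148b-5p (14.8 CPM) and miR-370-3p (14.7 CPM). miR-96-5p stood between miR-29c-5p (16.7 CPM) and a predicted entry (16.2 CPM).

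**Figure D1:**
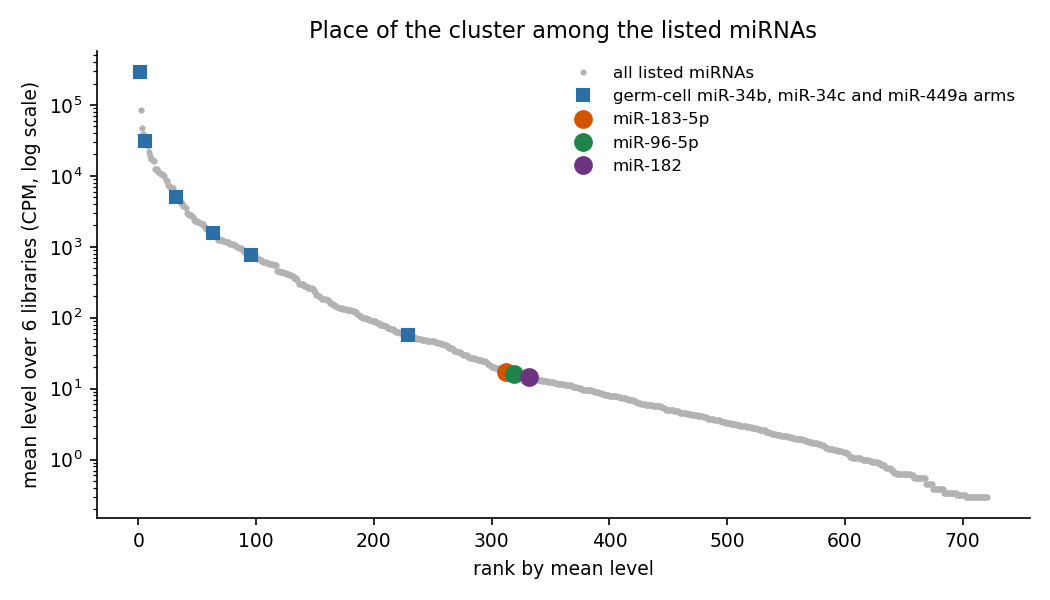
Mean level over the 6 libraries (CPM, log scale) against rank for the 721 listed miRNAs, with the 3 members as large circles and the arms of miR-34b, miR-34c and miR-449a as squares. The members sit together at ranks 312 to 332, below all 6 of these germ-cell miRNA arms.

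miR-183-5p was at 39.3, 8.1 and 9.1 CPM in diabetic replicates 1, 2 and 3, from 12, 3 and 5 reads. In normal replicates 1, 2 and 3 it was at 18.1, 20.3 and 9.4 CPM, from 8, 10 and 5 reads. Diabetic replicate 1 was the highest library and the other two diabetic libraries were the lowest, so the groups overlapped. The group means were 18.8 ± 17.7 CPM in diabetic and 15.9 ± 5.76 CPM in normal testes (SD, n = 3 each). The difference on the log2(CPM + 1) scale, diabetic minus normal, was -0.06 (SE 0.67, adjusted p = 0.974 by limma, and p = 0.9 by exact permutation). The CPM mean was higher in diabetes while the log2 difference was negative, since the single high library weighs less on the log scale. Without diabetic replicate 1 the difference was -0.75 (SE 0.71, adjusted p = 0.762 by limma). The groups then no longer overlapped, as was also true of 141 of 552 tested miRNAs (25.5%) with that library left out. The gap lay between diabetic replicate 3 (9.1 CPM) and normal replicate 3 (9.4 CPM), each from 5 reads.

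miR-96-5p, transcribed next to miR-183, was at 22.9, 10.8 and 18.2 CPM in diabetic replicates 1, 2 and 3, from 7, 4 and 10 reads. In normal replicates 1, 2 and 3 it was at 20.4, 12.2 and 13.2 CPM, from 9, 6 and 7 reads. It was the steadiest of the members, and the groups overlapped over most of their range. The group means were 17.3 ± 6.10 CPM in diabetic and 15.3 ± 4.47 CPM in normal testes (SD, n = 3 each). The log2 difference was 0.14 (SE 0.56, adjusted p = 0.905 by limma, and p = 0.9 by exact permutation). Without diabetic replicate 1 its sign turned, to -0.08.

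miR-182, the member farthest along the cluster, was at 3.3, 18.8 and 12.7 CPM in diabetic replicates 1, 2 and 3, from 1, 7 and 7 reads. In normal replicates 1, 2 and 3 it was at 22.7, 8.1 and 22.6 CPM, from 10, 4 and 12 reads. The lowest library was diabetic replicate 1 and the 2 highest were normal, but normal replicate 2 lay below 2 of the diabetic libraries. The group means were 11.6 ± 7.81 CPM in diabetic and 17.8 ± 8.40 CPM in normal testes (SD, n = 3 each). The log2 difference was -0.71 (SE 0.71, adjusted p = 0.795 by limma, and p = 0.5 by exact permutation). Without diabetic replicate 1 it was -0.06 (SE 0.65, adjusted p = 0.983 by limma). Without normal replicate 2 it was -1.17 (SE 0.75, adjusted p = 0.7 by limma), and the groups then did not overlap, as in 142 of 555 tested miRNAs (25.6%).

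**Figure D2:**
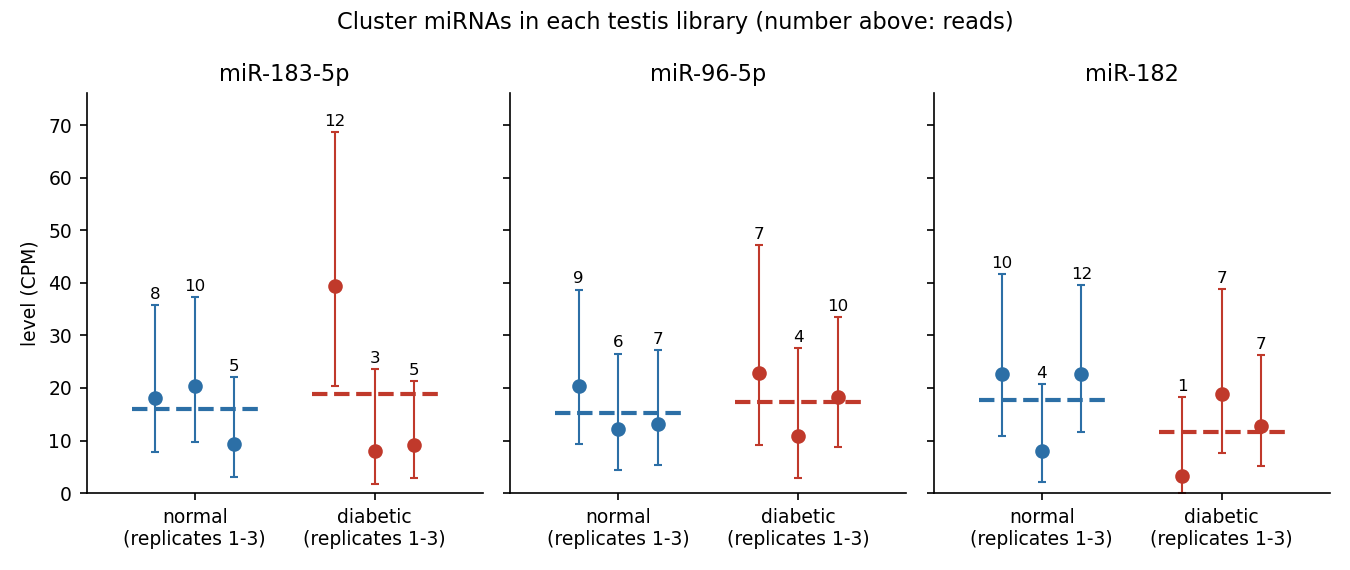
Level (CPM) of each member in every library, with its read count above, exact 95% Poisson intervals as bars and group means as dashed lines. The groups overlap for all 3 members, and diabetic replicate 1 holds the highest miR-183-5p value (12 reads) and the lowest miR-182 value (1 read).

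The central comparison asked whether the cluster differed between diabetic and normal testes. All 3 members passed the filter of 1 CPM in 3 or more libraries, which a single read in each of 3 libraries meets. At least 10 reads in every library were reached by 0 of them. A limma fit over 578 miRNAs gave 0 of the 3 members an adjusted p under 0.05, against 0 of all tested miRNAs (0%). At an unadjusted p under 0.05 there were 0 members, against 51 of the 578 (8.82%). The groups did not overlap for 0 members, against 86 of the 578 (14.9%). The edgeR and DESeq2 tests on reads recovered from the CPM also called 0 members at either threshold. Over all 578 miRNAs, edgeR called 2 at the adjusted and 55 at the unadjusted threshold, and DESeq2 called 1 and 39. With 3 libraries against 3, the smallest p that exact permutation can reach is 0.1. The median log2 difference was -0.06 over the 3 members and 0.0046 over all tested miRNAs, with 2 members below 0 and 1 above.

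At this depth the intervals were wide. The 95% interval of the log2 difference ran from -2.22 to 0.81 for miR-182, from -1.49 to 1.36 for miR-183-5p and from -1.05 to 1.34 for miR-96-5p. As folds on the log2(CPM + 1) scale, these reach from 0.214 to 1.75 for miR-182, from 0.356 to 2.57 for miR-183-5p and from 0.483 to 2.53 for miR-96-5p. Every interval thus held both no difference and differences of over 1 log2 unit in at least one direction. In a tissue of many cell types, fewer cells of a type and less of a miRNA per cell cannot be told apart.

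**Figure D3:**
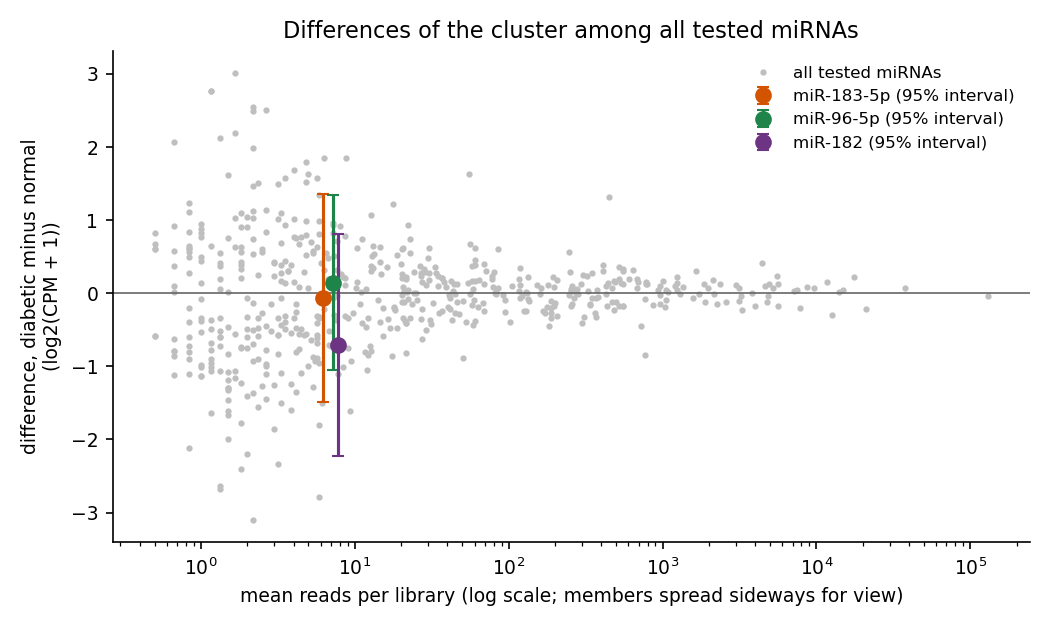
Difference on the log2(CPM + 1) scale, diabetic minus normal, against mean reads per library (log scale) for the 578 tested miRNAs, with 95% intervals for the members. All 3 intervals cross 0, and the members lie at about 7 reads per library, where differences of other miRNAs also scatter widely.

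Because the members are transcribed together, their sum was also followed. The summed level was 65.5, 37.7 and 40.0 CPM in diabetic replicates 1, 2 and 3, from 20, 14 and 22 reads. It was 61.2, 40.6 and 45.2 CPM in normal replicates 1, 2 and 3, from 27, 20 and 24 reads. Replicate 1 was the highest in each group, and the groups overlapped almost fully. The mean was 47.7 ± 15.4 CPM in diabetic and 49.0 ± 10.8 CPM in normal testes (SD, n = 3 each), a difference of -1.27 CPM that was smaller than the spread between replicates. Its direction rested on single libraries, since it was -10.15 CPM without diabetic replicate 1 and 3.75, 2.60 and 4.83 CPM without diabetic replicate 2, diabetic replicate 3 and normal replicate 1. With all libraries thinned at random to the smallest it was -8.73 CPM. That value also depends on which of these few reads the draw kept. The summed level is given without a p because it sums chosen members.

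The balance between members varied more among libraries than between groups. miR-182 had more reads than miR-183-5p in 4 of the 6 libraries and fewer in 2. Of the reads of these 2 miRNAs together, miR-182 took 1 of 13 in diabetic replicate 1, or 7.69% with an exact Clopper-Pearson 95% interval from 0.195% to 36.0%. In the other diabetic libraries it took 70.0% (interval 34.8% to 93.3%) and 58.3% (27.7% to 84.8%). In normal replicates 1, 2 and 3 it took 55.6% (30.8% to 78.5%), 28.6% (8.39% to 58.1%) and 70.6% (44.0% to 89.7%). The interval of diabetic replicate 1 overlapped those of diabetic replicates 2 and 3 and of normal replicates 1 and 2, but not that of normal replicate 3. These intervals cover counting error only, and overlap of 2 of them does not show that the shares were the same.

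The log2 ratio of miR-182 to miR-96-5p averaged -0.74 ± 1.63 over diabetic testes and 0.11 ± 0.64 over normal ones (SD, n = 3 each). That of miR-183-5p to miR-96-5p was -0.18 ± 0.86 and 0.03 ± 0.59, and that of miR-182 to miR-183-5p was -0.56 ± 2.34 and 0.09 ± 1.22 (SD, n = 3 each). The groups overlapped for all 3 ratios, and single libraries decided the differences between groups. Without diabetic replicate 1 the difference for miR-182 to miR-96-5p went from -0.85 to 0.02, and that for miR-182 to miR-183-5p from -0.64 to 0.69. The difference for miR-183-5p to miR-96-5p went from -0.21 to -0.68 without diabetic replicate 1, to 0.16 without diabetic replicate 3 and to 0.12 without normal replicate 2. The ratio of a 5p to a 3p arm could not be formed, since each member had a single entry.

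The spread between libraries was compared with the spread that counting alone would give. The variance of miR-183-5p in CPM was 5.65 times the counting variance among diabetic libraries and 0.996 times among normal ones. For miR-182 the corresponding ratios were 2.17 and 1.91, and for miR-96-5p they were 0.815 and 0.626. Each rests on 3 libraries. The counting interval of miR-183-5p in diabetic replicate 1 (20.3 to 68.6 CPM) overlapped only at its edge with those in diabetic replicate 2 (1.66 to 23.6 CPM) and diabetic replicate 3 (2.96 to 21.2 CPM). Such overlap does not show that the levels were the same.

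The members were also set against each other across the 6 libraries. On the log2(CPM + 1) scale, Pearson's r and Spearman's rho were -0.79 and -0.49 for miR-182 with miR-183-5p, -0.42 and -0.14 for miR-182 with miR-96-5p, and 0.61 and 0.60 for miR-183-5p with miR-96-5p. With the 2 libraries farthest from the median of the first-named miRNA left out, r became 0.47, -0.17 and -0.07. The first value thus changed sign and the third fell to near 0, so both rested on those libraries. The values share their library totals and are descriptions of between 1 and 12 reads a point.

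miR-183-5p had the highest mean of the members, and its pattern was compared with 227 other known miRNAs that had at least 10 reads in every library. The 3 closest by Pearson's r over the 6 libraries were miR-151-5p (r = 0.95, rho = 0.94), miR-708-3p (r = 0.90, rho = 0.94) and miR-499-5p (r = 0.89, rho = 0.77). Without the 2 farthest libraries r was 0.88, 0.84 and 0.66. They were the largest of 227 values over 6 points and are a description only. Their own log2 differences between the groups were 0.02, -0.19 and 0.06, with limma adjusted p-values from 0.846 to 0.974.

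The tissue label was checked against miRNAs known to mark cell types. All 6 arms of miR-34b, miR-34c and miR-449a, which are abundant in meiotic and later germ cells, were present and summed to between 311954 and 333902 CPM in diabetic and between 307039 and 356036 CPM in normal libraries. The sum was dominated by miR-34c-5p (mean 291471 CPM over the 6 libraries). None of the 6 had an unadjusted p under 0.05 in limma, and their median log2 difference was -0.05. Groups did not overlap for miR-34b-3p (4435 to 4941 against 5014 to 5485 CPM, diabetic against normal, log2 difference -0.15). The same was true of 86 of the 578 tested miRNAs (14.9%). The cluster, which has been placed in the same germ cells, summed to at most 65.5 CPM.

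Other cell type lists were examined because the cluster is also found outside germ cells. The 6 miRNAs of lining epithelium (miR-200a-3p, miR-200b-3p, miR-200c-3p, miR-141-3p, miR-429 and miR-205) summed to between 102 and 141 CPM in diabetic and between 127 and 156 CPM in normal libraries. Of these, 2 of 6 had an unadjusted p under 0.05 in limma, in opposite directions. They were miR-200c-3p (log2 difference 1.63, 30 reads over the 6 libraries) and miR-205 (-1.61, 56 reads). Groups did not overlap for the summed miR-202 arms of the seminiferous tubule (4102 to 4467 against 3262 to 3693 CPM, diabetic against normal), a sum that miR-202-5p dominates, or for the miR-126a arms of endothelium (11722 to 13783 against 8662 to 11086 CPM). Nor did they overlap for the 4 white blood cell miRNAs, the arms of miR-142 and miR-223 (333 to 429 against 453 to 591 CPM) or for miR-122-5p, a liver miRNA (936 to 1372 against 1839 to 2786 CPM). miR-122-5p had a log2 difference of -0.85 and the smallest unadjusted p of the 578 in limma (0.000157, adjusted p = 0.0907). The 2 miR-202 arms differed in sign, miR-202-5p by a log2 difference of 0.30 (unadjusted p = 0.0076 in limma) and miR-202-3p by -0.18, with overlapping groups. Of the listed 4 white blood cell miRNAs, miR-223-3p and miR-223-5p had only 12 and 4 reads over the 6 libraries. Their means of 2.0 and 0.67 reads a library were under the floor of 3 reads, so no sign is read from them. Other white blood cell miRNAs were looked up after their values were seen and did not share the negative sign of the miR-142 arms throughout. Log2 differences were 0.20 (SE 0.21) for miR-150-5p and 0.35 (SE 0.39) for miR-155-5p. For miR-146b-5p and miR-146a-5p they were 0.16 (SE 0.11) and -0.18 (SE 0.12). miR-146a-3p had a mean of 2.17 reads a library, under the floor of 3 reads, so no fold is given. Contractile cell miRNAs (4 arms, 85959 to 96015 against 79267 to 97409 CPM) and red blood cell miRNAs (3 arms, 169 to 367 against 252 to 276 CPM) overlapped. In each of the 4 lists that did not overlap, 1 miRNA had an unadjusted p under 0.05, and limma called 0 of the 28 marker miRNAs at an adjusted p under 0.05. Over all 578 tested miRNAs, 51 (8.82%) had an unadjusted p under 0.05 and 86 (14.9%) had groups that did not overlap. The part of cell makeup in the levels of the cluster was not tested.

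**Figure D4:**
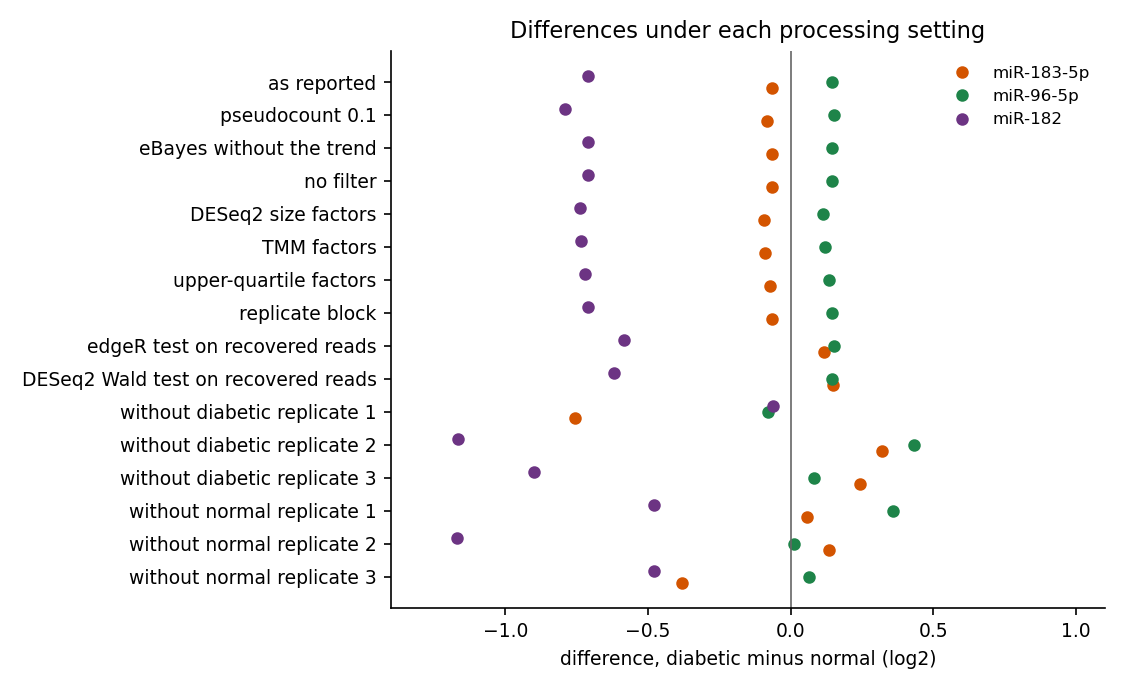
Log2 difference, diabetic minus normal, of each member as reported and under 15 other processing settings. miR-182 stays below 0 in all of them, from -1.17 to -0.06, while miR-183-5p lies on both sides of 0 and miR-96-5p falls below it without diabetic replicate 1.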

How the data were processed

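Testis small RNA libraries, 3 diabetic and 3 normal, were grouped by the labels. The authors' methods describe single-end sequencing, trimming of primers and adaptors, miRBase annotation and CPM. The submitters' processing notes name Bowtie 0.12.2, HISAT2 2.0, StringTie 1.3.0 and the mouse build mm8 without their roles, so coordinates given here are those of RefSeq sequences only. The labels' extraction text describes poly(A) mRNA libraries, which small RNA libraries are not, and the study's description of miRNA sequencing was followed. The deposited values are CPM rounded by the authors to 1 decimal, under headings that say TPM. Each value was a whole number of reads within 0.05 CPM for 100% of values, which gave library totals of 305476, 372049 and 549446 reads (diabetic) and 441214, 492592 and 530132 reads (normal). One read was worth 1.82 to 3.27 CPM, and the floor of 3 reads 5.46 to 9.82 CPM. Intervals cover counting error only.

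Entries that reached 1 CPM in 3 or more libraries were tested on log2(CPM + 1) by limma 3.58.1 (eBayes with trend; R 4.3.3), two-sided, with Benjamini-Hochberg adjustment over all 578. Two-sided exact permutation tests used scipy 1.17.1. The labels do not say whether replicates were separate animals, so p-values measure only the spread between these libraries, which may be technical. edgeR 4.0.16 (quasi-likelihood) and DESeq2 1.42.0 on recovered reads were alternatives, beside another pseudocount (0.1), no trend, other filters, scaling factors, thinned reads, a replicate block and leaving out each replicate. Scripts were tested on simulated data. The named miRNAs were all members, those sharing a seed, the 3 closest in pattern, level neighbours and cell type markers. Members and lists were chosen with earlier results of these data known.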

Additional observations from a re-analysis of the deposited data

How the results depend on the processing

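The 3 members stayed at 0 calls, adjusted or unadjusted, in every alternative that could be run for them. Requiring at least 10 reads in every library removed all 3 before testing, so it gave no value for them. In the alternatives that could be run, unadjusted calls over all tested miRNAs ranged from 38 of 550 (without normal replicate 1) to 60 of 578 (TMM factors). The difference of miR-183-5p turned to 0.11 with the edgeR test and 0.15 with the DESeq2 Wald test, and leaving out single replicates moved it between -0.75 and 0.32. miR-96-5p ranged from -0.0781 to 0.43 and miR-182 from -1.17 to -0.06 in those fits, and the number of members whose groups did not overlap from 0 to 1. The summed level differed by -10.15 to 4.83 CPM in them and by -8.73 CPM with reads thinned at random. The ratio differences ranged from -1.48 to 0.69 (miR-182 to miR-183-5p), -1.60 to 0.02 (miR-182 to miR-96-5p) and -0.68 to 0.16 (miR-183-5p to miR-96-5p). The causes of these changes were not tested. Pseudocount, trend, filter and scaling turned no member's sign.

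Over all tested miRNAs, 0 calls at an adjusted p under 0.05 rose to 8 when eBayes ran without its trend and to 2 by edgeR. There was 1 call by the DESeq2 Wald test, 1 under upper-quartile factors, 1 unfiltered and 1 under the minimum of 10 reads everywhere. It ranged from 0 to 2 without one replicate. Under that minimum 257 miRNAs were tested, of which 25 had an unadjusted p under 0.05 and 47 had groups that did not overlap. Set against 51 and 86 of the 578, the counts were lower but the shares were not. Leaving out 1 replicate gave from 124 of 545 miRNAs without overlap (22.8%, without normal replicate 3) to 145 of 542 (26.8%, without diabetic replicate 3). Groups of 2 against 3 libraries fail to overlap more readily than groups of 3 against 3, so these counts are not comparable with the 86 of 578.

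Same-numbered libraries came from different groups, hence different animals, and nothing in the sources pairs them. The correlations of their deviations from the group means were -0.1132, -0.0733 and -0.0568 over 296 miRNAs, and 0 of 6 libraries were closest to their own number. The replicate block gave 1 call at an adjusted p under 0.05 over all miRNAs. The members' differences were the same as without it, -0.71 for miR-182, -0.06 for miR-183-5p and 0.14 for miR-96-5p, with limma adjusted p-values of 0.837, 0.978 and 0.926.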
